A study of Drosophila melanogaster with 4 samples.

Results

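Zona pellucida (ZP) domain genes were followed in sorted gonads of control and Phf7-mutant Drosophila embryos. The 10 genes are tyn, thw, dyl, m, mey, nyo, neo, dpy, pio and qsm, and they were picked by symbol from the 17103 genes of the deposited table. They were proposed with earlier results of these data in view, tyn and thw for their difference between the genotypes. Their values are thus a description and carry no test. The listing as ZP genes was taken as given, and the domains of the proteins, that of thw among them, were not checked here. Control embryos carried the germ cell reporter vas-GFP alone, and mutant embryos carried Phf7[DN18] together with vasGFP. Gonads came from stage 17 embryos kept at 25 °C for 18 to 22 h, with 2 samples per genotype. The sorted particles were whole gonads of both sexes with their somatic cells, so a change in the number of cells of a type and a change in RNA per cell cannot be told apart.

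ZP domain proteins are secreted or membrane-anchored proteins of the apical extracellular matrix, the layer on the outer face of an epithelium. The domain lets them polymerise into filaments, and it is named after the coat of the vertebrate egg. In the Drosophila embryo several of them are known from the epidermis, where the transcription factor Shavenbaby, a product of the ovo gene, switches on tyn, neo, nyo, mey, dyl and m in the cells that form denticles, and each protein sits at its own level of the growing denticle. dpy encodes a giant matrix protein that holds tendon cells, tracheal tubes and wings to the cuticle, pio encodes a protein that works with it at the apical surface, and qsm is known from the light response of clock neurons.

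Of the 10 genes, 3 were read at much higher levels in Phf7-mutant gonads. Reads per genotype were 5.23-fold higher for tyn, 9.80-fold for thw and 8.26-fold for neo, each with control libraries that did not overlap the mutant libraries. qsm was higher by 1.24-fold, also without overlap. dpy, pio and m overlapped between the genotypes, and dyl, nyo and mey were hardly read in any library. Of the 6 genes of the denticle group, tyn and neo were thus the ones with higher reads in both mutant libraries.

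The deposited table gives 1 mean normalized count per gene over all 4 libraries, and the whole reads of each library were recovered from it for genes with a mean of up to 1000. No replicate number could be tied to a recovered library, so they are named control a, control b, mutant a and mutant b. Values are given in that order throughout. The genotype of each library came from the sign of the deposited fold change where a gene had a lone read, and Phf7 itself had 749 and 495 control reads against 9 and 44 mutant reads. All 10 ZP genes had recovered reads. A normalized count is the reads divided by the size factor of the library, which was 0.823 to 1.13. The recovered genes held 1534164 to 2130338 reads per library and 17.4% of the mean total. The reads come from transcript 3′ ends, so they do not scale with gene length, and levels of different genes were not compared.

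tyn encodes a ZP protein of the denticle and of other cuticle surfaces of the embryo. It lies on X from 140318 to 200663, on the plus strand of BDGP 6.54 (the dm6 genome), with 6 transcripts in the Ensembl annotation that all encode the same length of 715 amino acids. It had 29 and 20 control reads and 189 and 130 mutant reads. Even the lower mutant library thus stood far above the higher control library. Normalized counts were 29.5 and 24.3 in controls against 167 and 116 in mutants, with means of 26.9 ± 3.66 and 142 ± 36.5 (SD, n = 2). The difference was 2.34 on the log2(normalized count + 1) scale, with a standard error of 0.32 from limma. The 5.23-fold ratio of reads per genotype had a 95% interval of 3.86 to 7.21, which covers counting error only.

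neo encodes another ZP protein of the denticle and lies on 3R from 29819131 to 29825800, on the plus strand. It had 2 and 12 control reads and 82 and 62 mutant reads. Both mutant libraries stood far above both controls, but the controls differed from each other more than those of tyn did. Normalized counts were 8.31 ± 8.87 in controls and 63.9 ± 12.3 in mutants (SD, n = 2). The log2 difference of 3.23 had a standard error of 0.91, the largest of the 7 ZP genes fitted. The 8.26-fold ratio of reads had a counting interval of 4.76 to 15.5.

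The other 4 genes of the denticle group did not follow tyn and neo. m, which helps to shape cuticle and wing surfaces, had 10 and 13 control reads and 6 and 13 mutant reads. Its genotypes overlapped, and the log2 difference was -0.62 with a standard error of 0.49. dyl, a ZP gene of denticles and bristles, had 5 and 9 control reads against 5 and 1 mutant reads. Its normalized counts were 5.08 and 10.9 in controls against 4.43 and 0.891 in mutants, without overlap but from 20 reads in all. The ratio of mutant to control reads was 0.344 for dyl, with a counting interval of 0.108 to 0.953.

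nyo and mey, which encode a pair of related ZP proteins of the denticle, lie 36039 bp apart on the same strand of 3R. nyo had 1 and 5 control reads against 0 and 2 mutant reads. mey had 3 reads, all of them from control a. The ratio of mutant to control reads had a counting interval of 0.0264 to 1.496 for nyo and of 0 to 1.94 for mey. A rise as large as that of tyn or neo lay outside both intervals, which cover counting error only. A decrease or a small rise in either gene could not be detected at this depth. dyl, nyo and mey fell under the mean count of 10 that a gene needed to enter the fit.

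thw is the second gene with a large difference. It lies on 3R from 7224414 to 7241138, on the plus strand, with 1 transcript of 6 exons and a protein of 1137 amino acids. Whether this protein holds a ZP domain was not checked here. thw had 14 and 10 control reads and 103 and 190 mutant reads. The controls lay close together and the mutants differed from each other by more, with mutant b the higher, whereas tyn and neo were higher in mutant a. Normalized counts were 13.2 ± 1.47 in controls and 130 ± 55.2 in mutants (SD, n = 2). The log2 difference was 3.15 with a standard error of 0.41, and the 9.80-fold ratio of reads had a counting interval of 6.46 to 15.5.

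dpy and pio, whose proteins act together in the tracheal matrix, overlapped between the genotypes. dpy had 38 and 45 control reads and 68 and 60 mutant reads, a log2 difference of 0.30 with a standard error of 0.31. pio had 18 and 56 control reads against 33 and 26 mutant reads. Control b alone stood above the other libraries of pio, so its log2 difference of -0.43 had a standard error of 0.72. The difference of pio was 0.49 without control b and -1.35 without control a, so the direction was set by which control was kept. dpy spans 136839 bp of 2L with 87 exons. HP6, read at a mean count of 1730, lies within dpy on the same strand but shares no exon with it.

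qsm, on 2R, had 58 and 51 control reads and 79 and 89 mutant reads. Normalized counts were 58.9 and 62.0 in controls against 70.0 and 79.3 in mutants, so the genotypes did not overlap although the gap was small. The log2 difference was 0.30 with a standard error of 0.25. The 1.24-fold ratio of reads had a counting interval of 0.966 to 1.59, so its difference was not detectable at this depth.

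**Figure D1:**
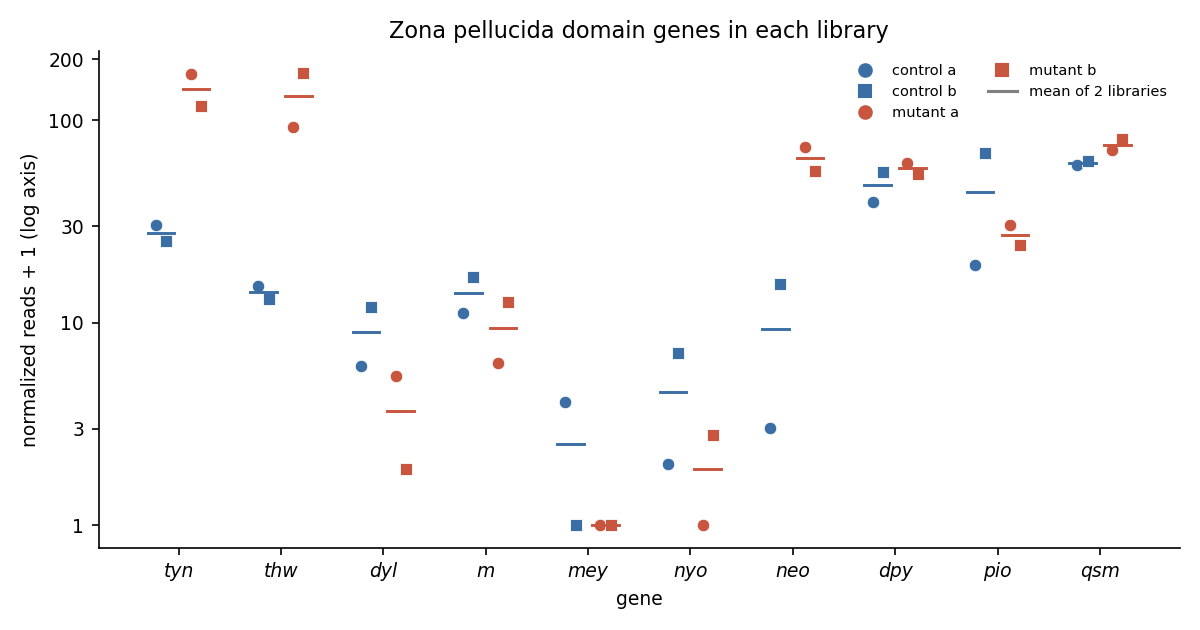
Normalized reads plus 1 on a log axis for the 10 ZP genes in each of the 4 libraries (blue control, red mutant, circles library a, squares library b), with a bar at the mean of the 2 libraries of a genotype. tyn, thw and neo show both mutant libraries well above both controls, and mey, nyo and dyl lie near the floor.

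Over all genes the genotypes were compared with limma on log2(normalized count + 1) for the 7652 genes with recovered reads and a mean count of at least 10. Of these, 0 passed an adjusted p of 0.05 (0% of genes, Benjamini-Hochberg), while 449 had an unadjusted p under 0.05, and limma-voom also called 0 with 391. With 2 libraries per genotype the smallest adjusted p was 0.0725. Phf7 itself, the mutated gene, was not called, with a log2 difference of -5.16 and a standard error of 0.84. A count of 0 calls thus does not show that the genotypes were alike. The ZP genes are therefore placed among all genes by size and by overlap. Of the 7 ZP genes in the fit, 4 were higher in mutants without overlap, where 15.4% of all genes were, and 0 were lower without overlap, where 17.5% of all genes were. 3 of the 7 were higher without overlap by a log2 of at least 2, which held for 1.33% of all genes. The filter shaped these counts. neo passed it through the mutants, with means of 8.31 in controls and 63.9 in mutants, and dyl, lower without overlap, fell under it. The genes were proposed on this same contrast and nothing is read from these counts.

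Ordered by log2 difference from the highest in mutants, neo was gene 47 of 7652, thw gene 50 and tyn gene 117. dpy and qsm followed at 1970 and 1976, with pio at 6299 and m at 6738. The median of the 7 was 0.30, against 0.01 for all genes. The ZP genes in the fit thus did not move as a block, since 3 stood near the top while dpy, qsm, pio and m did not.

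**Figure D2:**
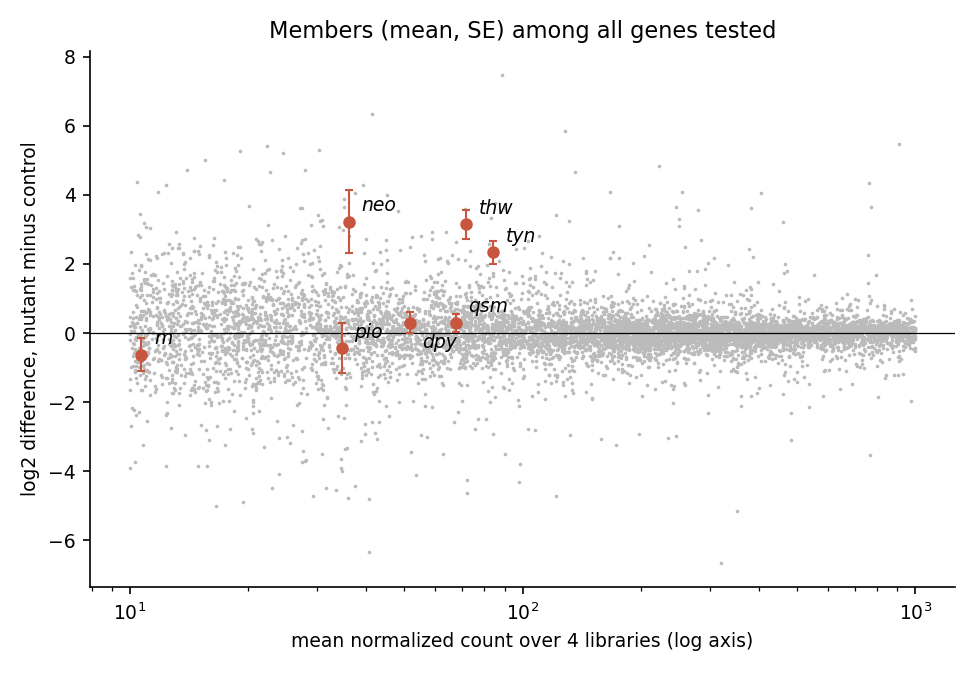
Log2 difference of mutant minus control against the mean normalized count (log axis) for all 7652 genes in the fit, with the 7 ZP genes in red and bars of 1 standard error. neo, thw and tyn stand at 3.23, 3.15 and 2.34, and the other 4 lie between -0.62 and 0.30.

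The 4 libraries differed in how much RNA of other tissues they held. The summed normalized counts of 12 muscle markers were 1024 and 3394 in the controls against 4699 and 1183 in the mutants, with all 12 genes overlapping between the genotypes. The sums of 9 neuron markers were 861 and 3117 in controls against 5864 and 1352 in mutants, and those of 8 midgut markers were 136 and 4382 against 2851 and 508. The most abundant midgut marker, alphaTry, had a mean count of 1121 and no recovered reads. Control a and mutant b were thus low, and control b and mutant a high, for all 3 tissues. neo followed this order within both genotypes, with control counts of 2.03 and 14.6 and mutant counts of 72.6 and 55.2 after normalization. In the mutants tyn followed this order and thw did not. The controls had 29 and 20 reads of tyn and 14 and 10 of thw, and nothing is read from their order. Taken 1 library per genotype, a choice made after the values were seen, the log2 difference of tyn was 1.94 between the low libraries and 2.73 between the high ones. It was 3.48 and 2.81 for thw, and 4.21 and 2.24 for neo. These values come from 1 library each and have no error. The part of muscle, neuron and midgut RNA in the levels of tyn, thw and neo was not tested.

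Epidermis and trachea are the tissues where most of these ZP genes are known to act. The summed counts of the 18 epidermis and cuticle markers with reads were 453 and 756 in the controls against 335 and 130 in the mutants. Cpr67Fb, a cuticle protein gene with 228 and 326 control reads against 37 and 33 mutant reads, made up much of the control sums. Without it, an alternative chosen after the values were seen, the sums were 222 and 360 against 302 and 101, and the genotypes overlapped. A further 2 of the 20 listed, Edg84A and Lcp1, were at 0. Of the 9 in the fit 1 was higher without overlap, 3 were lower and 5 overlapped, with a median log2 difference of -0.43. Over all genes in the fit, 15.4% were higher without overlap and 17.5% lower, and nothing is read from so few markers. TwdlM, another cuticle protein gene, had 74 and 15 control reads against 1 and 2 mutant reads. Vajk3, also of the cuticle, had 4 and 1 control reads against 40 and 11 mutant reads and was the 1 epidermal marker in the fit that was higher. The 9 tracheal markers with reads summed to 891 and 937 in controls against 903 and 792 in mutants, and all 6 in the fit overlapped. The epidermis sums of all 18 markers were thus lower in both mutant libraries, and they overlapped without Cpr67Fb, as the tracheal sums did. The part of any of these tissues in the levels of tyn, thw and neo was not tested.

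Germ cell and gonad markers with recovered reads differed less between the libraries. Of 13 germ cell genes, the 10 with recovered reads summed to 4412 and 4145 in the controls against 4365 and 4534 in the mutants, with a median log2 difference of -0.01. Of 11 somatic gonad genes, the 7 with recovered reads summed to 2494 and 2516 in controls against 1985 and 1847 in mutants. The mutant sums were thus lower without overlap, and the median log2 difference was -0.32 over 6 genes. Of these 6, 2 were lower without overlap, esg and upd1, and 4 overlapped. Normalized counts of esg were 963 and 1159 in controls against 877 and 627 in mutants. Those of upd1 were 672 and 467 against 212 and 440. Over all genes in the fit 17.5% were lower without overlap, and nothing is read from so few markers. Above the limit for recovered reads lay fax, bnb, tj and zfh1 of the somatic gonad, with mean counts of 15455, 5414, 3411 and 2260. Those of the germ cell list were vas, piwi and tud, at 3599, 1540 and 1048, and the sums leave all of these out. The most abundant markers of hemocytes and fat body lay above the limit for recovered reads, with mean counts of 4423 for Col4a1, 1628 for vkg and 1059 for apolpp, so sums by library leave them out. The 8 hemocyte markers with recovered reads summed to 430 to 715 per library. 3 of 7 fat body genes were at 0.

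**Figure D3:**
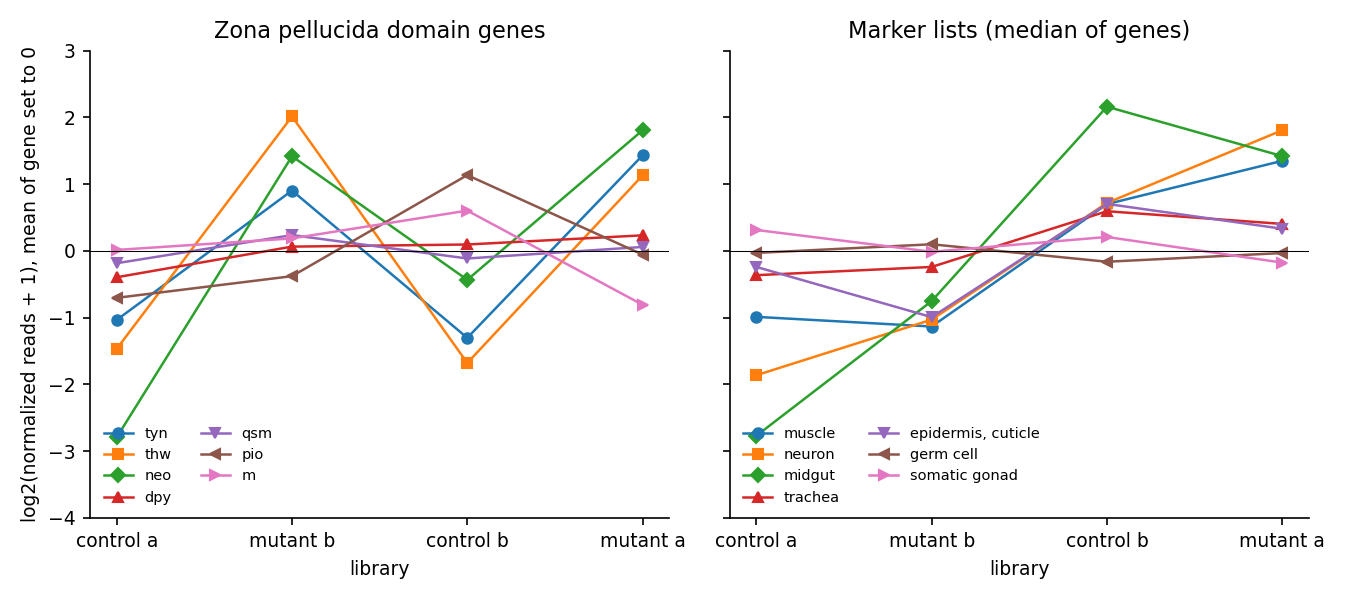
Log2(normalized reads + 1) of the 7 ZP genes in the fit (left, each gene centred on 0) and the median of the same value over each marker list (right), with the libraries low in muscle, neuron and midgut markers first and lines that only join points. tyn, thw and neo are high in both mutant libraries, while muscle, neuron and midgut markers are high in control b and mutant a.

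The genes next to tyn included others with more reads in mutants. RhoGAP1A, which encodes a GTPase-activating protein, lies on X from 127449 to 140340 on the same strand, so its annotated end overlaps the first 23 bp of tyn. It had 2 and 7 control reads and 108 and 84 mutant reads, a 17.1-fold ratio of mutant to control. CG17636, on the minus strand 13603 bp away, had 0 and 0 control reads against 18 and 45 mutant reads, which is at least 16.9-fold higher against a floor of 3 reads over the control group. The next gene, the non-coding CR40469, went the other way, with 964 and 485 control reads against 268 and 592 mutant reads. After normalization the counts of CR40469 were 980 and 589 in controls against 237 and 527 in mutants. On that scale 3 adjoining protein-coding genes were thus higher in both mutant libraries, and the non-coding gene beyond them was lower.

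In the mutants tyn and RhoGAP1A were ordered alike, with 189 and 130 reads of tyn and 108 and 84 of RhoGAP1A. The controls had 29 and 20 reads of tyn against 2 and 7 of RhoGAP1A. Nothing is read from the order of so few control reads. The nearest annotated 3′ end of tyn lies 58.7 kb from the start of the gene, where it overlaps RhoGAP1A. Inside tyn, 3 genes lie on the opposite strand, CG17707 with 3 reads in all, CR45473 with 10 and CR43863 with 5. The strand setting of the counting is not given in the sources used here. The part of opposite-strand reads or of RhoGAP1A reads in the count of tyn was not tested.

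On the other side of tyn, CG3038 lies 43290 bp away and had 130 and 97 control reads against 72 and 167 mutant reads, which overlap. G9a, a histone methyltransferase gene next to it, had a mean count of 1228, above the limit for recovered reads. Within 150 kb, a window chosen after the values were seen, CG42376, CG3777 and the antisense gene CR43906 were also higher in mutants without overlap, by 1.70-fold, 3.34-fold and 1.28-fold. CG32816 and CG13375 were lower without overlap only after normalization, and by a narrow gap. Normalized counts of CG32816 were 78.2 and 260 in controls against 74.4 and 24.9 in mutants. Those of CG13375 were 15.2 and 10.9 in controls against 10.6 and 8.02 in mutants.

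**Figure D4:**
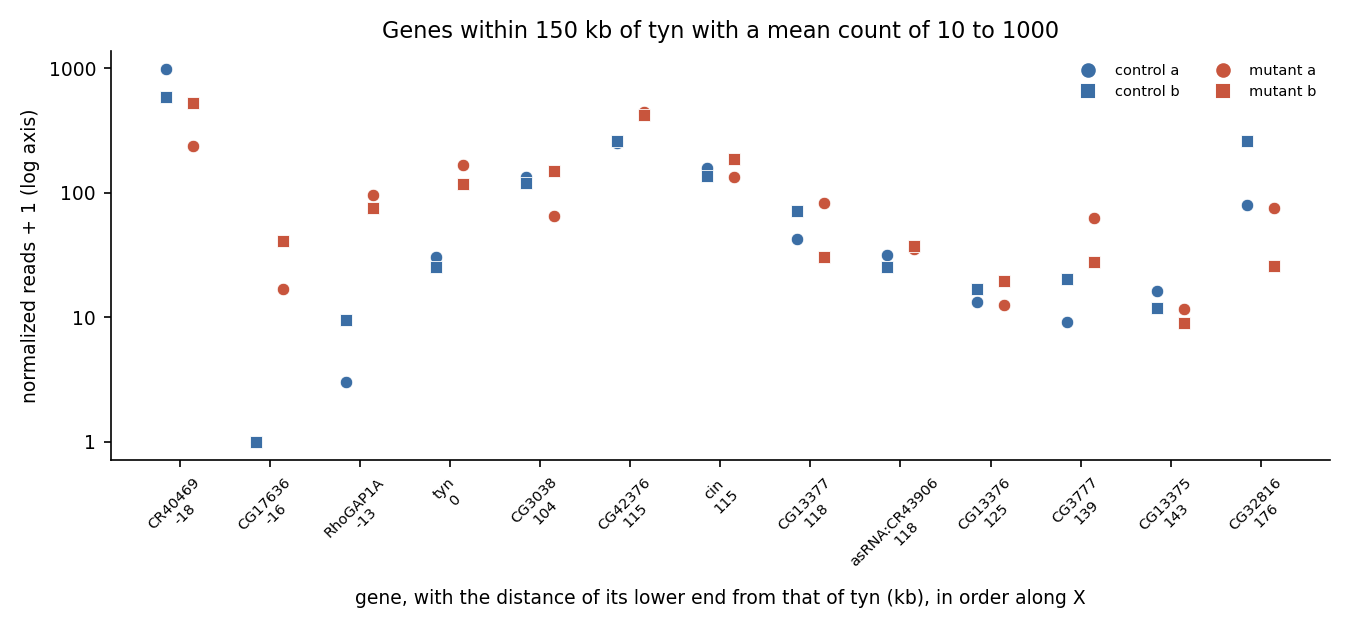
Normalized reads plus 1 (log axis) of the genes within 150 kb of tyn with a mean count of 10 to 1000, in order along X, with the distance of each gene's lower end from that of tyn in kb. CG17636, RhoGAP1A and tyn have both mutant libraries (red) above both controls (blue), and the 2 control points of CG17636 coincide at 0 reads.

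Of the 4 neighbours of thw, 1 with few reads was higher in both mutant libraries. CG14605, 4708 bp away on the minus strand, had 0 and 0 control reads against 9 and 15 mutant reads, which is at least 6.42-fold higher against the same floor. CG14607, 621 bp past the end of thw on the same strand, had 2 reads in control b and 0 elsewhere. Noc3, a nucleolar protein gene 3093 bp from thw, had 801 and 578 control reads against 746 and 840 mutant reads, with a log2 difference of -0.10. The fourth neighbour, CG14606, had a mean count of 1144 and no recovered reads.

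Neighbours of neo were near 0 or nearly level. Atg16, an autophagy gene 1480 bp from neo, had 99 and 52 control reads against 94 and 90 mutant reads. Vps16B, a vesicle trafficking gene 2679 bp away, had 72 and 67 control reads against 69 and 82 mutant reads, and CG7829 and Prtl99C had 5 reads and 1 read in all. None of these 4 neighbours was thus higher in both mutant libraries than in both controls.

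m lies on X from 11754273 to 11769508, and 2 of its 5 neighbours were lower in mutants without overlap. CG9360, inside m on the opposite strand without sharing an exon, had 51 and 73 control reads and 12 and 5 mutant reads. CG15221, 17655 bp away, had 47 and 41 control reads against 9 and 5 mutant reads. Their log2 differences were -3.11 and -2.83, against -0.62 for m. inaF-D and Karl overlapped between the genotypes, with positive log2 differences of 1.78 and 2.32. dy, a ZP gene of the wing 260 bp beyond m, had 0 and 0 control reads against 1 and 8 mutant reads. It was thus higher without overlap, but from few reads. Over all genes in the fit, 15.4% were higher without overlap and 17.5% lower. Nothing is read from the counts of neighbours of tyn, thw, neo or m.

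The profile of tyn over the 4 libraries was compared with those of 6800 other genes of a mean count of at least 20, by the Euclidean distance of the log2 values centred per gene. The nearest was CG12224 at a distance of 0.27, with 6 and 4 control reads and 48 and 37 mutant reads. CG11880, GILT3, Usp39 and CG10064 followed, at 0.34 to 0.57. thw was gene 73 in this order and neo gene 894. For thw the nearest was the non-coding CR45835 at 0.88, with 21 and 20 control reads against 120 and 160 mutant reads, followed by CG15065, GILT3, CG12224 and CG42359 at 1.00 to 1.10. tyn was gene 11 in the order of thw. GILT3 and CG12224 were among the 5 nearest of both genes. These distances rest on 4 values per gene, and a gene near tyn or thw was by construction high in mutants.

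Other ZP genes outside the 10 were thinly read. pot, a ZP gene of the cuticle attachment, had 3 and 16 control reads and 49 and 14 mutant reads, with overlap. zye had 5 reads in control b and 7 in mutant b, and nompA, which encodes a matrix protein of sensory neurons, had 3 reads in control b alone. Of the 4 genes of this list, pot alone had enough reads to enter the fit.

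Genes that control the denticle group were also read. Over all genes in the fit, 15.4% were higher in mutants without overlap and 17.5% lower. With few genes per list, nothing is read from the counts by direction in this list and those below. Of 8 genes of Shavenbaby and its upstream control, 6 were in the fit, with 0 higher without overlap, 2 lower and 4 overlapping, and a median log2 difference of -0.26. ovo, the gene of Shavenbaby that also has germline products, had a mean count of 1135 and no recovered reads. Ubr3, a ubiquitin ligase that starts the processing of Shavenbaby, had 929 and 743 control reads against 1033 and 937 mutant reads. EcR, the ecdysone receptor, had 67 and 88 control reads against 71 and 61 mutant reads, and wg, a Wnt ligand, had 23 and 19 against 15 and 22. After normalization both were lower in mutants without overlap, with log2 differences of -0.54 for EcR (standard error 0.35) and -0.50 for wg (standard error 0.31). The median of the list was 0.27 without mutant b and -0.84 without control a, so its sign was set by which library was left out.

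Other targets of Shavenbaby, which build the actin core and the cuticle of the denticle, were close to level. Of 5 genes 3 were in the fit, with 1 higher without overlap and 2 overlapping, and a median log2 difference of 0.09. sn, the actin bundler fascin, had 386 and 345 control reads against 493 and 410 mutant reads. WASp, an activator of actin nucleation, had 145 and 129 control reads against 179 and 186 mutant reads, a log2 difference of 0.09 after normalization. The median was -0.07 without control a and -0.14 without mutant a, so its sign was not stable.

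Proteases that process apical matrix lay on both sides of 0. Of 8 genes 6 were in the fit, with 2 higher without overlap, 2 lower and 2 overlapping, and a median of -0.03. Mmp1, a matrix metalloprotease, had 106 and 72 control reads and 184 and 180 mutant reads, a log2 difference of 0.73 with a standard error of 0.27. AdamTS-A, a secreted metalloprotease, had 98 and 60 control reads against 207 and 118 mutant reads, a difference of 0.70. Fur1 and Fur2 are furin proteases, which can cleave ZP proteins after their domain, and Fur2 had 291 and 161 control reads against 220 and 167 mutant reads. Fur1 had 562 and 541 control reads against 709 and 432 mutant reads. tok, a tolloid protease, had 77 and 53 control reads against 46 and 59 mutant reads, and Np, which encodes a membrane protease of the tracheal matrix, was at 0. The median was -0.31 without mutant a and 0.36 without mutant b.

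Genes of chitin synthesis and matrix assembly build the layer that ZP proteins border. Of 15 genes 10 were in the fit, with 1 higher without overlap, 3 lower and 6 overlapping, and a median log2 difference of -0.40. knk, which organises chitin, had 90 and 75 control reads and 49 and 66 mutant reads, a difference of -0.84 with a standard error of 0.29. verm, a chitin deacetylase, and Cht10, a chitinase, were too low for the fit, with 9 and 13 control reads against 0 and 0 mutant reads of verm and 8 and 4 against 1 and 2 of Cht10. obst-A, a chitin-binding matrix protein, had 19 and 24 control reads against 10 and 14 mutant reads, a difference of -1.10. obst-B, a relative of it, had 17 and 3 control reads against 31 and 27 mutant reads, a difference of 1.54 with a standard error of 0.76. The most abundant of the list, the chitinase gene Cht2 with 531 and 415 against 712 and 508 reads and mmy of chitin precursor synthesis with 74 and 116 against 88 and 71, overlapped. The median was -0.88 without control a and -0.049 without mutant b.

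None of the genes of these 5 lists passed an adjusted p of 0.05 by limma, nor did any of the 7652 genes. Phf7 itself was among the genes not called, so the lack of calls does not show that the lists were level. Against these lists and the other ZP genes, tyn, thw and neo had the 3 highest log2 differences of the genes in the fit. The set was chosen for tyn and thw with this contrast known, and neo passed the filter through the mutants. Nothing is read from this order.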

How the data were processed

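The data were 3′-end libraries of sorted gonads, 2 per genotype. The authors aligned reads to dm6 with HISAT2, made gene counts with htseq-count and tested genotypes with DESeq2, whose versions are not given in the sources used. The deposited signal is the mean normalized count over the 4 libraries, 1 value per gene. The authors' log2 fold change, its standard error, the Wald score, the p-value and the adjusted p hold the study's own comparison and were not used, except that the sign of the deposited log2 fold change where a gene had a lone read told which recovered library was of which genotype (76 and 77 such genes for the controls, 109 and 110 for the mutants).

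Each mean is a sum of whole reads times the value of 1 read per library, and single-read genes gave these values. Of 11208 genes with a mean above 0 and up to 1000, 11207 had exactly 1 solution within the rounding of the printed mean and 1 had more and was left out. Of 1500 decoy values 10 had a solution, and 0 of 1500 up to a mean of 100. Size factors of the libraries, controls first, were 0.984, 0.823, 1.13 and 1.12. The design had named limma on recovered values in place of a count test.

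limma 3.58.1 in R 4.3.3 was fitted to log2(normalized count + 1) of genes with a mean of at least 10, and a fold on this scale understates changes of low genes. The script was tested on simulated data. Ratios of reads divide the reads of a genotype by its summed size factors, with exact binomial 95% intervals that cover counting error only. Reads without molecular identifiers are not independent molecules. numpy 2.4.6, pandas 2.3.3, scipy 1.17.1 and matplotlib 3.10.9 were used, with gene positions from Ensembl release 115 (BDGP 6.54). Alternatives were other pseudocounts, filters and scalings, limma-voom and leaving out each library.

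The members and lists were chosen with earlier results of these data known. Genes named are the 10 ZP genes, of each of the 5 pathway lists the 2 with the highest mean count and up to 3 in the fit without overlap by size of fold, the 5 nearest profiles of tyn and of thw, the 2 nearest genes on each side of them, and Phf7. Neighbours of neo and m, genes in the wider window around tyn, and zye, nompA, dy, Np, verm, Cht10 and the single markers were named after their values were seen. The rule was meant for the marker lists too, which are given by their sums instead. The symbols tal and dys were not matched. The methods of the study call the replicates biological, and p-values measure the spread between these samples.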

Additional observations from a re-analysis of the deposited data

How the results depend on the processing

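No paired analysis was possible because the recovered libraries carry no replicate number. limma called 0 genes with pseudocounts of 0.5 and 5, without a filter, with limma-voom, with both other scalings and without any 1 library. With a mean count of at least 20 it called 2, CG31191 and CR45822 (adjusted p = 0.0390 for each, of 6801 genes). The genes with an unadjusted p under 0.05 numbered 705 without a filter and 263 without mutant a, against 449. The 4 ZP genes without overlap were also separated with the total of reads and with the upper quartile, which added dpy for a count of 5. Leaving out 1 library cannot undo such a separation, so the counts of 4 to 6 found there are no check of it. Without any 1 library the log2 difference was 2.07 to 2.60 for tyn, 2.70 to 3.59 for thw, 2.05 to 4.41 for neo, 0.21 to 0.39 for qsm, 0.05 to 0.54 for dpy, -1.12 to -0.12 for m and -1.35 to 0.49 for pio, so pio alone of the 7 changed sign. Other settings gave 2.18 to 2.38 for tyn, 2.83 to 3.19 for thw and 2.54 to 3.47 for neo. Between control a and mutant b alone, chosen after the data were seen, the values that moved were 1.94 for tyn, 0.17 for m and 0.42 for qsm. Between control b and mutant a alone they were 2.73 for tyn, -1.41 for m and 0.17 for qsm. The cause was not tested. List medians without any 1 library were -0.84 to 0.27 for Shavenbaby and its control, -0.14 to 0.14 for its other targets, -0.31 to 0.36 for proteases and -0.88 to -0.049 for chitin genes. Counts of under 20 reads per library, as for dyl, nyo, mey and m, limit what could be seen, and 2 libraries per genotype limit every call.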
